A study of Homo sapiens with 8 samples.

Results

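The genes described here are 7 secreted proteases of the ADAMTS family and 3 tissue inhibitors of metalloproteinases, the TIMPs, in BT474 cells. They were taken by symbol from the deposited count table (ADAMTS1, ADAMTS4, ADAMTS5, ADAMTS6, ADAMTS9, ADAMTS13, ADAMTS15, TIMP1, TIMP2 and TIMP3), and all 10 were found among its 26475 genes. The symbols were chosen with the difference between the groups already known, so they were selected on the counts of this same comparison, and the members' own group differences are a description that carries no test. BT474 is an established cell line from a human breast tumour, with extra copies of ERBB2. The 8 libraries form 2 groups, 4 from cells called NPY1R high and 4 from cells called NPY1R low, where NPY1R encodes the neuropeptide Y receptor Y1. How the high and low cells were obtained, and whether replicates are separate cultures, is not given in the sources used here, so p-values measure the spread between these libraries, which may be technical. No drug treatment is named for either group, although the series title places the cells in a study of tolerance to lapatinib, an inhibitor of EGFR and ERBB2.

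ADAMTS proteases are zinc enzymes that are secreted and then cut proteins of the extracellular matrix and of blood plasma. They carry thrombospondin type 1 repeats, which bind matrix, and they are made as inactive precursors whose propeptide is usually removed by furin-like convertases. TIMPs are small secreted proteins that block metalloproteinases by placing their N-terminal cysteine at the catalytic zinc, and TIMP3 is the member known for inhibiting several ADAMTS enzymes. In breast tissue, remodelling of the matrix by such enzymes accompanies ductal growth and involution.

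What the 7 proteases share, and the rule did not use, is the zinc-binding site. The coding sequence of that site is shown for each because it is the feature that makes these genes proteases, with the codons of the 3 zinc-binding histidines in capitals. Sequences run 5′ to 3′ and come from GENCODE release 29 transcripts (GRCh38).
ADAMTS1: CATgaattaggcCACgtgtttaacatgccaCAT
ADAMTS4: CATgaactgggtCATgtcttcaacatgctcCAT
ADAMTS9: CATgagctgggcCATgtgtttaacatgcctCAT
ADAMTS15: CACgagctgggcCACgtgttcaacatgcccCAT
ADAMTS5: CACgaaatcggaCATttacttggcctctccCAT
ADAMTS6: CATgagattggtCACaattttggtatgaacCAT
ADAMTS13: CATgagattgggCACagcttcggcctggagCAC

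The first 4 of these sites have an asparagine codon between the second and the third histidine, where the other 3 have a glycine codon. Against the 33 bases of ADAMTS1, the sites of ADAMTS9, ADAMTS15 and ADAMTS4 differed at 5, 6 and 8 bases, and those of ADAMTS6, ADAMTS5 and ADAMTS13 at 13, 14 and 15. For the TIMPs the matching stretch is the start of the mature protein, with the codons of its first pair of cysteines in capitals.
TIMP1: TGCaccTGTgtcccaccccacccacag
TIMP2: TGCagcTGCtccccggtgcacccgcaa
TIMP3: TGCacaTGCtcgcccagccacccccag

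Over these 27 bases TIMP2 differed from TIMP1 at 10 and TIMP3 at 9.

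Total counts per library ranged from 18025648 to 30609791. NPY1R, which checks the labels, averaged 857 ± 170 in the NPY1R high group against 95.5 ± 5.65 in the NPY1R low group (CPM, counts per 1000000 of the library size after TMM scaling, mean ± SD, n = 4 each). The luminal markers KRT8, KRT18, KRT19, EPCAM, GATA3, ERBB2, ESR1 and CDH1 were all at a mean of at least 1 CPM. Of these 8, edgeR's quasi-likelihood test put 2 higher and 1 lower in NPY1R high at an adjusted p below 0.05. The shares over all tested genes were 5.78% and 7.81%. Among 8 fibroblast markers only COL1A1 reached that level, COL1A2, DCN and PDGFRB had no count in any library, and the list summed to 10.9 to 17.5 CPM in NPY1R high and 10.4 to 17.6 CPM in NPY1R low. Of 6 endothelial markers only VWF reached 1 CPM, with TEK at 0 throughout and sums of 9.26 to 15.6 CPM in NPY1R high and 13.5 to 18.3 CPM in NPY1R low. Of 6 myoepithelial markers TP63 and OXTR did, with KRT14 at 0 and sums of 7.94 to 11.6 and 7.11 to 10.4 CPM. Of 6 leukocyte markers only CD68 did, with CD3E at 0 and sums of 0.936 to 1.23 and 1.14 to 2.1 CPM. The 2 groups overlapped in each of these 4 sums.

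ADAMTS1 was the member that set the groups apart. It encodes a protease that cuts the proteoglycans versican and aggrecan and is known as a gene induced by progesterone in the ovary. In GRCh38 it lies on the minus strand of chromosome 21, from 26835747 to 26845409. Its counts were 1637, 1695, 1675 and 1080 in NPY1R high replicates 1 to 4. The NPY1R low replicates had 235, 292, 185 and 213. Every NPY1R high library was far above every NPY1R low library. Scaled for depth, the means were 59.8 ± 2.82 and 8.74 ± 1.03 CPM (SD, n = 4 each). This is a log2 fold change of 2.77 (SE 0.09), or 6.84-fold. The level was even within each group, with a coefficient of variation of 4.71% in NPY1R high and 11.7% in NPY1R low. The difference in log2 CPM was 2.72 between replicates 1 and 2 of the groups and 2.82 between replicates 3 and 4. By size, the change ranked 35 among the 810 genes called higher, and 14 among the 562 of them with a mean of at least 5 CPM. In bulk RNA, fewer cells expressing a gene and less RNA per cell cannot be told apart.

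**Figure D1:**
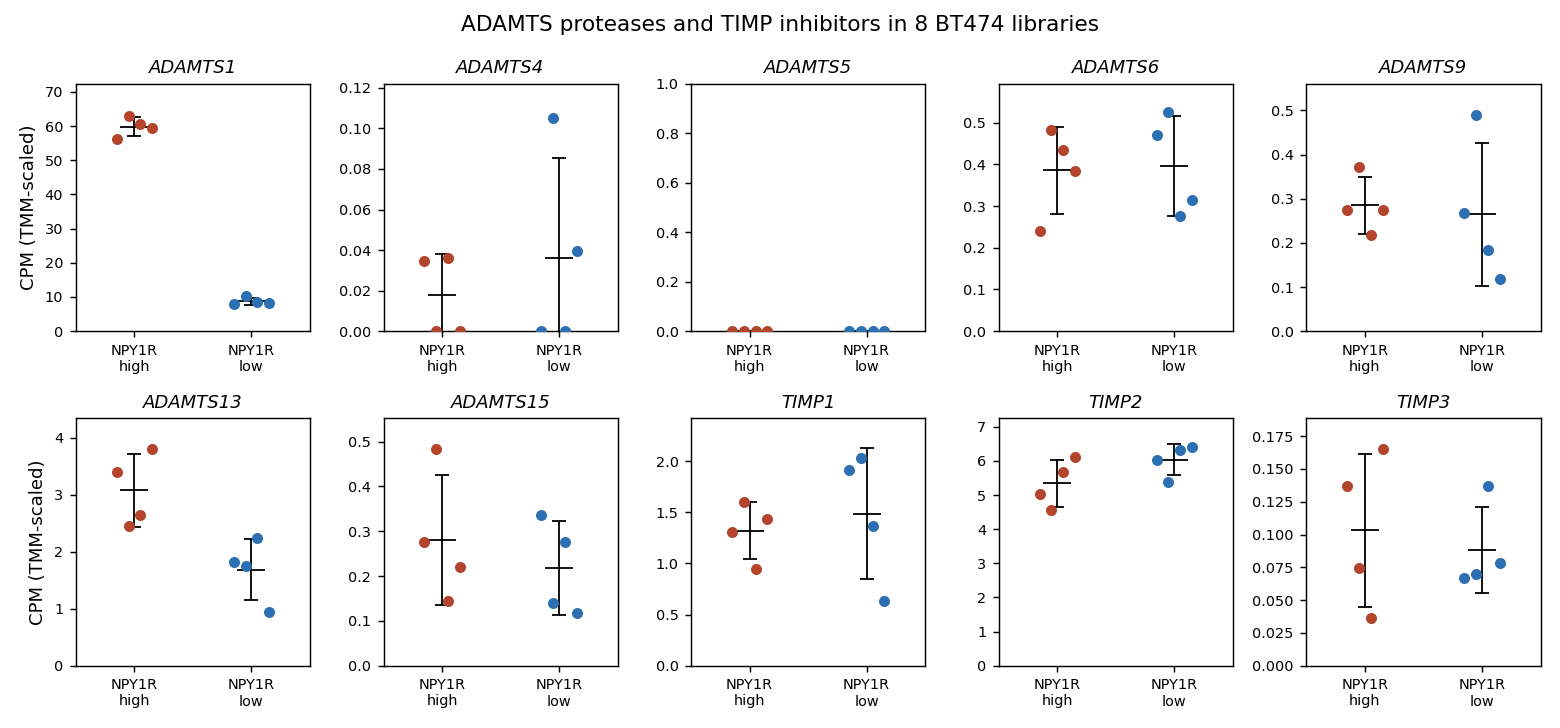
TMM-scaled CPM of the 10 members, 1 panel per gene with its own axis from 0, 1 point per library, and the mean with its SD (n = 4 per group) in black. ADAMTS1 is at 56.2 to 63.0 CPM in NPY1R high and 7.89 to 10.2 CPM in NPY1R low, ADAMTS13 separates by a narrow margin, and the groups overlap in the other panels with counts, while ADAMTS5 is at 0.

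Of the genes around ADAMTS1, only APP had counts. Within 1000000 bases on either side, the count table held ADAMTS5, APP, CYYR1, MIR4759 and LINC00113, which were looked at after the change of ADAMTS1 had been seen. APP, the amyloid precursor protein gene, averaged 357 ± 8.46 CPM with high NPY1R against 392 ± 24.4 CPM with low NPY1R (SD, n = 4 each). Its log2 fold change was -0.13 (SE 0.06), and it did not pass (edgeR quasi-likelihood, adjusted p = 0.154). The other 4 had 0 counts in every library.

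ADAMTS13, the plasma protease that trims von Willebrand factor, was the other member whose groups did not overlap. Its counts in replicates 1 to 4 were 99, 66, 73 and 69 in NPY1R high. They were 54, 50, 49 and 24 in NPY1R low. On the CPM scale the lowest NPY1R high library, at 2.45, stood only just above the highest NPY1R low library, at 2.24. The means were 3.07 ± 0.634 and 1.69 ± 0.542 CPM (SD, n = 4 each), with a log2 fold change of 0.86 (SE 0.26). The separation was wider in replicates 3 and 4, at a log2 CPM difference of 1.08, than in replicates 1 and 2, at 0.68. It overlaps REXO4 on the opposite strand, and whether the counting used strand is not given in the sources used here, so reads of the pair may be divided wrongly. REXO4 itself had a log2 fold change of -0.01 (SE 0.14).

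The other proteases were at the edge of detection. ADAMTS6, known to act on fibrillin microfibrils, had 6 to 15 counts per library, with a log2 fold change of -0.07 (SE 0.33). Its difference was -0.44 between replicates 1 and 2 and 0.39 between replicates 3 and 4, so no direction held. ADAMTS9, known for cutting versican and for a role in ciliated and migrating cells, had 3 to 14 counts per library. ADAMTS15, an aggrecan-cutting relative of ADAMTS1, had 3 to 13. Neither passed the filter on low counts, and for both the groups overlapped. ADAMTS4 and ADAMTS5 are the aggrecanases of cartilage. ADAMTS4 had 6 counts in all 8 libraries together, at most 3 in a library. ADAMTS5 had 0 counts in all 8 libraries, and a count of 0 allows up to 3 counts, or 0.098 to 0.166 per 1000000 of a library's unscaled total, for counting error alone.

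For each of the 3 inhibitors the groups overlapped. TIMP2, which inhibits metalloproteinases broadly and also helps to activate MMP2 at the cell surface, had 146, 123, 157 and 111 counts in NPY1R high replicates 1 to 4. In NPY1R low it had 180, 154, 138 and 163. The CPM ranges overlapped, at 4.57 to 6.11 and 5.39 to 6.4, with means of 5.35 ± 0.684 and 6.04 ± 0.456 (SD, n = 4 each). The log2 fold change was -0.18 (SE 0.13). The gene overlaps CEP295NL on the same strand, which had 0 to 3 counts per library.

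TIMP1, an inhibitor that many tissues induce on injury or inflammation, had 38, 43, 26 and 26 counts in NPY1R high replicates 1 to 4. In NPY1R low it had 57, 58, 30 and 16, so that group held both the highest and the lowest library. Its log2 fold change was -0.19 (SE 0.34), and its log2 CPM difference changed sign between replicates 1 and 2 (-0.43) and replicates 3 and 4 (0.29). TIMP3, the matrix-bound inhibitor of ADAMTS enzymes, had 1 to 4 counts per library and 19 in all, too few for the filter. TIMP1 lies inside SYN1, and TIMP3 inside SYN3, each on the opposite strand. SYN1 had 0 to 9 counts per library and SYN3 0 or 1.

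Counted over the members, 5 of 10 passed the filter on low counts, namely ADAMTS1, ADAMTS6, ADAMTS13, TIMP1 and TIMP2. A gene was called when edgeR's quasi-likelihood test gave it a p-value, adjusted by Benjamini-Hochberg over all genes, below 0.05. Of the 5, 1 was called higher in NPY1R high and 0 lower, with 2 higher and 0 lower at an unadjusted p under 0.05. DESeq2 called 2 higher and 0 lower, and limma-voom 1 and 0. Where 1 was higher it was ADAMTS1, and where 2 were, ADAMTS1 and ADAMTS13. Over all 14008 tested genes 5.78% were called higher and 7.81% lower. Since the members were picked knowing this comparison, nothing is read from their count. The groups did not overlap for ADAMTS1 and ADAMTS13, in both cases with NPY1R high above, as for 8.78% of all tested genes. The median log2 fold change of the 5 was -0.07, beside -0.03 over all tested genes. Fitted without a filter, the members with few counts had log2 fold changes of 0.12 (SE 0.47) for ADAMTS9, 0.41 (SE 0.51) for ADAMTS15, -0.77 (SE 1.22) for ADAMTS4 and 0.24 (SE 0.66) for TIMP3, all with errors larger than the difference.

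Levels of different genes were compared per transcript length, as TPM (counts per kilobase, scaled to 1000000 per library) with the length of the longest GENCODE transcript. ADAMTS1 had 21.4 ± 2.55 TPM in NPY1R high and 3.16 ± 0.415 TPM in NPY1R low (SD, n = 4 each). TIMP2 had 2.7 ± 0.223 and 3.13 ± 0.514 TPM, and TIMP1 2.25 ± 0.618 and 2.47 ± 0.905 TPM. In NPY1R high, ADAMTS1 therefore stood alone at the top, above every TIMP value. In NPY1R low its libraries, at 2.59 to 3.48 TPM, lay within the span of TIMP1 and TIMP2, and the 3 genes did not differ beyond their spread. ADAMTS13 came next, at 1.15 ± 0.192 and 0.634 ± 0.188 TPM. ADAMTS6, ADAMTS15, ADAMTS9 and TIMP3 followed with means at or under 0.1 TPM in both groups, in an order that their spread does not separate.

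Set against the 3 TIMPs together, the level of ADAMTS1 was 4.31 ± 0.432 times their summed TPM in NPY1R high, with a range of 3.8 to 4.82. In NPY1R low it was 0.566 ± 0.101 times that sum, from 0.445 to 0.688 (SD, n = 4 each). TIMP3, the member known for inhibiting ADAMTS enzymes, added on average only 0.0412 TPM in NPY1R high and 0.0364 TPM in NPY1R low. The ratios compare RNA levels, and inhibition of ADAMTS1 was not tested. These ratios depend on the transcript length used. With the median transcript length, which is shortened by fragments in the annotation, they were 18.5 and 2.47, so that ADAMTS1 exceeded the summed TIMPs in both groups. Under either length the ratio was higher in every NPY1R high library than in any NPY1R low library. A length scales a gene alike in every library, so this order says nothing beyond the change of ADAMTS1 itself. ADAMTS1 made up 93.8% ± 1.05 of the summed TPM of the 7 proteases in NPY1R high and 78.2% ± 5.3 in NPY1R low (SD, n = 4 each).

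**Figure D2:**
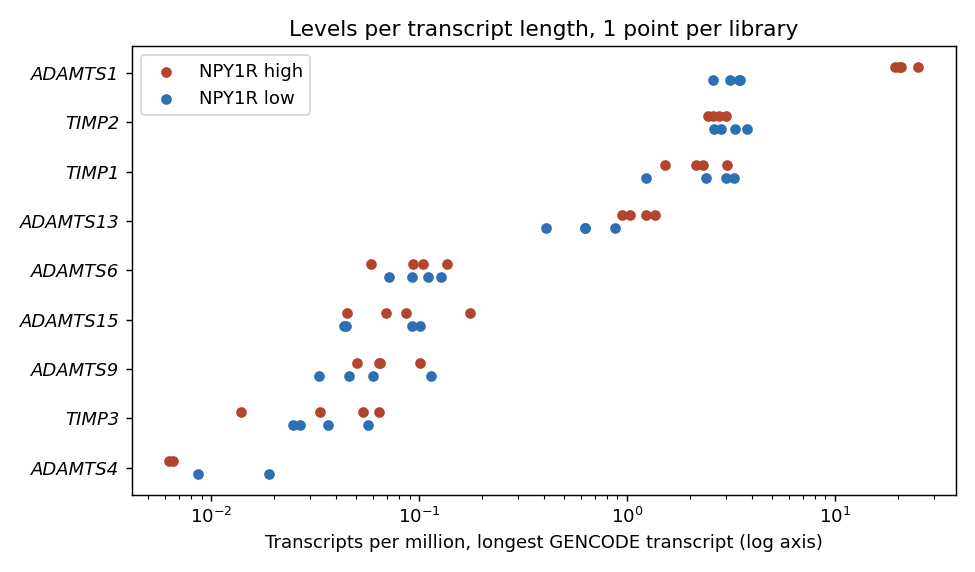
TPM in each library (log axis, longest GENCODE transcript), 1 row per member in order of the median, NPY1R high in red and NPY1R low in blue. ADAMTS1 lies at 19.4 to 25.1 TPM in NPY1R high and beside TIMP1 and TIMP2 in NPY1R low; values of 0, which are all of ADAMTS5 and 4 libraries of ADAMTS4, cannot be drawn on this axis.

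Over the 8 libraries, the tested genes whose log2 CPM was most like that of ADAMTS1 were PCDH9, TMEM64 and PLCE1, each with a Pearson r of 0.996. Among the 14003 genes compared, 22 had an r of at least 0.99. An r over both groups includes the difference between them. Within the groups, the deviations from the group mean correlated with those of ADAMTS1 at 0.938 for PCDH9, 0.556 for TMEM64 and 0.285 for PLCE1. These are descriptions over 8 libraries that share depth and scaling.

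Of the 12 further ADAMTS proteases, 3 were tested and 0 were called by edgeR's quasi-likelihood test, by DESeq2 or by limma-voom, with 1 at an unadjusted p under 0.05, beside the 5.78% and 7.81% of all genes called higher and lower. They were ADAMTS12, with a log2 fold change of 1.10 (SE 0.46), ADAMTS19 with 0.36 (SE 0.19) and ADAMTS17 with -0.34 (SE 0.22), and the 3 were named after their values were seen.

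The ADAMTS-like proteins share the matrix-binding repeats but lack the protease domain. Of 7, 5 were tested, 3 were called higher and 1 lower in NPY1R high, where 5.78% and 7.81% of all tested genes were. Their median log2 fold change was 0.67, beside -0.03 over all tested genes. This list, like the other pathway lists, was chosen with earlier results of these data known, so nothing is read from its count or median. PAPLN (papilin) went from 1.51 ± 0.443 in low to 5.69 ± 1.99 CPM in high (SD, n = 4 each). It rose by 1.91 (SE 0.29) on the log2 scale (edgeR quasi-likelihood, adjusted p = 0.00164). ADAMTSL5 rose by 1.13 (SE 0.20) on the log2 scale, from 0.646 to 1.42 CPM. THSD4, which was named after its values were seen, rose by 0.67 (SE 0.08) and was the most abundant of the list, at 103 ± 11.6 CPM with high and 64.3 ± 3.19 CPM with low NPY1R (SD, n = 4 each). ADAMTSL3 fell by 0.90 (SE 0.17). The groups did not overlap for any of these 4 genes, as for 8.78% of all tested genes with NPY1R high above and 11.4% with NPY1R low above.

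**Figure D3:**
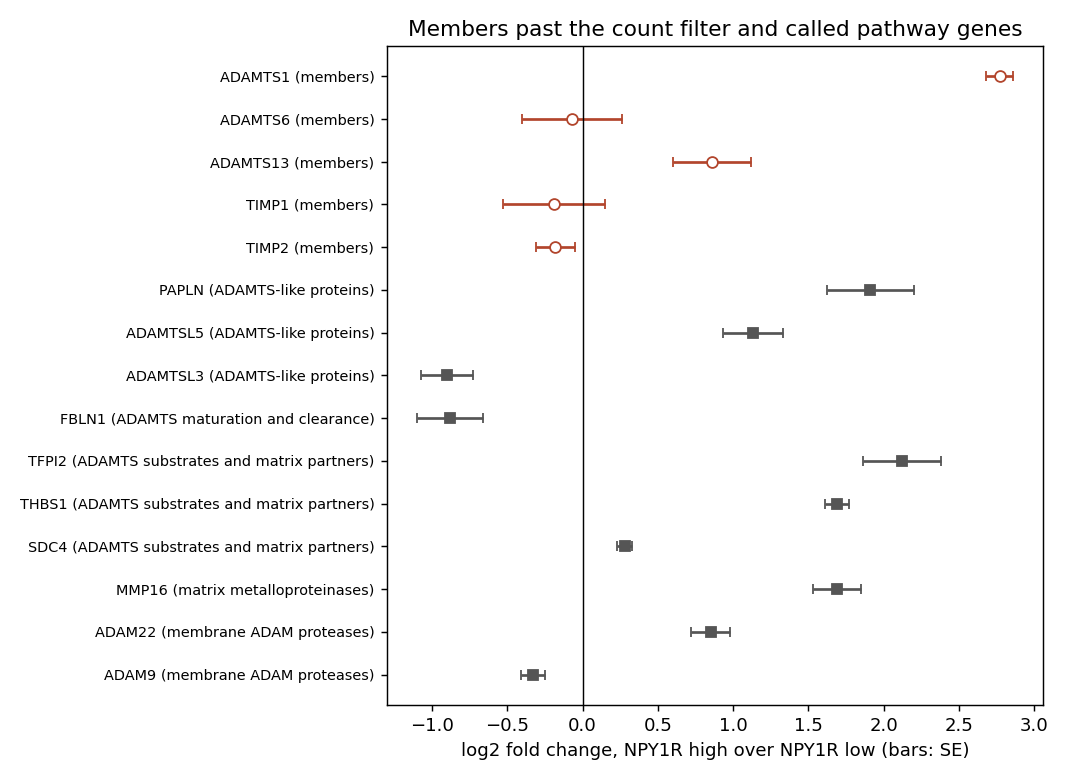
Log2 fold change of NPY1R high over NPY1R low with its SE, for the 5 members that passed the count filter (open red circles, shown as a description) and the pathway genes named by rule, which passed the threshold of 0.05 (filled grey squares, edgeR quasi-likelihood). ADAMTS1, at 2.77, is above every other gene drawn, and the bars of ADAMTS6 and TIMP1 cross 0.

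Among 19 ADAMTS substrates and matrix partners, 8 were tested, 3 were called higher and 0 lower by edgeR's quasi-likelihood test, DESeq2 and limma-voom alike, with 3 and 1 at an unadjusted p under 0.05. Over all tested genes the first of these tests called 5.78% higher and 7.81% lower. The median log2 fold change of the 8 was 0.27, beside -0.03 over all tested genes. THBS1 encodes thrombospondin 1, a matrix protein that ADAMTS1 can cut. It went from 97.3 ± 6.1 in low to 314 ± 29.4 CPM in high (SD, n = 4 each), and rose by 1.69 (SE 0.08) on the log2 scale (edgeR quasi-likelihood, adjusted p = 1.24e-06). TFPI2, a protease inhibitor of the matrix, rose by 2.12 (SE 0.26), and the cell surface proteoglycan SDC4 by 0.28 (SE 0.05). VWF, the substrate of ADAMTS13, had a log2 fold change of -0.47 (SE 0.17) and did not pass (edgeR quasi-likelihood, adjusted p = 0.0987).

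Versican (VCAN), a proteoglycan known as a substrate of ADAMTS1, ADAMTS4, ADAMTS5, ADAMTS9 and ADAMTS15, lay below the filter and was singled out after its values were seen. It had 0, 1, 0 and 0 counts in NPY1R high replicates 1 to 4. In NPY1R low it had 28, 9, 12 and 10 counts. The groups thus ran opposite to those of ADAMTS1, with no overlap, although the highest NPY1R low library held 28 of that group's 59 counts. Per count sequenced, the NPY1R low total was 55.2 times the NPY1R high total, with an exact 95% interval of 9.54 to 2220 that covers counting error only. Fitted with no filter, VCAN was called lower in NPY1R high (edgeR quasi-likelihood, adjusted p = 0.00123). The other large proteoglycans of the list were nearly absent, with ACAN at 1 count, BCAN at 1 and NCAN at 2 over the 8 libraries.

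Of the genes for maturation and clearance of ADAMTS enzymes all 8 were tested, and only FBLN1, a matrix protein known as a cofactor of ADAMTS1, was called (7.81% of all tested genes were called lower). It fell by 0.88 (SE 0.22) on the log2 scale, with 7.3 ± 1.45 CPM in high, 13.4 ± 3.82 in low (SD, n = 4 each) and overlapping groups. The call was lost in 6 of 8 fits without 1 library (the adjusted p reached 0.0919 by edgeR's quasi-likelihood test). FURIN, which removes propeptides, had a log2 fold change of 0.25 (SE 0.35), and POFUT2, which adds fucose to thrombospondin repeats, of 0.02 (SE 0.08).

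Of 23 matrix metalloproteinases 7 were tested and only MMP16, a membrane-bound enzyme, was called, also by DESeq2 and limma-voom (5.78% of all tested genes were called higher). It went from 3.4 ± 0.696 in low to 11.0 ± 1.19 CPM in high (SD, n = 4 each) and rose by 1.69 (SE 0.16) on the log2 scale. Of 21 membrane ADAM proteases 11 were tested, 1 was called higher and 1 lower, beside the same shares of all genes. ADAM22, which is known as a catalytically inactive receptor of neurons, rose by 0.85 (SE 0.13). ADAM9 fell by 0.33 (SE 0.08), a call lost under 10 of 18 alternatives. The sheddases ADAM10 and ADAM17, both targets of TIMP3, had log2 fold changes of -0.15 (SE 0.05) and 0.03 (SE 0.09), and neither passed the test. Of 3 other inhibitors none was tested: RECK had 0 counts, TIMP4 2 and A2M 4.02 over the 8 libraries. Over all 93 listed pathway genes, 42 were tested, 8 rose and 3 fell, beside the 5.78% and 7.81% of all genes.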

How the data were processed

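RNA was sequenced from 4 NPY1R high and 4 NPY1R low BT474 samples. Per the labels' protocols, RNA was column-purified, treated with DNase and made into libraries with a stranded kit from 200 ng. The authors deposited expected counts per gene symbol, of which 7.97% to 8.76% per library were not whole numbers; the submitters' processing notes name STAR 2.5.2, RSEM 1.3.0 and hg38, and the annotation is not given in the sources used here. The tables of single samples differed from the series table in 0 values. Libraries of the same group, compared in 12 pairs, differed by more than sampling noise (chi-square per degree of freedom from 6.0 to 66.42). The largest values, 62.95 and 66.42, were for NPY1R low replicate 4 against replicates 1 and 2. Against NPY1R low replicate 3 it was 20.91, and the smallest value was for NPY1R low replicates 1 and 2.

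Expected counts were rounded to whole numbers, since the planned test takes counts. Genes were filtered with filterByExpr (minimum count 10), which left 14008, scaled by TMM and tested with edgeR (quasi-likelihood, no covariates), with Benjamini-Hochberg adjustment over all tested genes and a threshold of 0.05. The SE of an edgeR log2 fold change was derived from the test, as its absolute value divided by the square root of the F statistic. CPM use the TMM-scaled library sizes, and log2 CPM a prior count of 2. TPM were computed from the counts and GENCODE release 29 transcript lengths, without effective lengths. GC content was available for 94.2% of tested genes. Tools were edgeR 4.0.16, DESeq2 1.42.0 and limma 3.58.1 under R 4.3.3. The procedure was tested on simulated data. Counts carry no molecular identifiers, so intervals and limits from counts cover counting error only.

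Every member was named. From each pathway list at most the 3 called genes with the largest absolute change and a mean of at least 1 CPM were named, and genes outside this rule were picked with their values in view. NPY1R and the 3 genes most like the called member with the largest rise were also named. The same rule for a called member that fell found 0 genes. The members and lists were chosen with earlier results of these data known. Alternatives were other scalings, other filters, DESeq2, limma-voom, a replicate block, a term for replicates 1 and 2 against 3 and 4, a GC offset (spline with 5 degrees of freedom), and leaving out each library. Some values are not reported here.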

Additional observations from a re-analysis of the deposited data

Results flagged for a closer look

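TIMP3 in NPY1R low replicate 3, at 0.137 CPM, stood apart from the other NPY1R low libraries, with a gap to the nearest of 0.837 of the group's range, above Dixon's 95% critical value for 4 samples. The value rests on 3 counts, where the others had 2. Of 18 group values checked, 1 was flagged, and chance gives about 1 in 20.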

How the results depend on the processing

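Because the members were chosen on this comparison, their values under other settings are a description and support nothing. Over 18 alternatives the log2 fold change of ADAMTS1 ranged from 2.75 to 2.86 and that of ADAMTS13 from 0.70 to 1.06. The members called higher were 2 and not 1 with median-of-ratios factors, upper-quartile factors, library totals, no filter, 1 CPM in 4 libraries, DESeq2, the GC offset and a term that split replicates 1 and 2 from 3 and 4. Leaving out each library gave 1 to 2, with 2 without NPY1R low replicate 3 or 4. The added member was ADAMTS13 each time, so it was called in 10 of 18 alternatives. ADAMTS6 changed sign without NPY1R high replicate 1, NPY1R low replicate 1 or NPY1R low replicate 2, over a range of -0.2 to 0.12.

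With each library left out, 637 to 1069 genes were higher and 588 to 1064 lower, with 709 without NPY1R high replicate 3, 626 without NPY1R high replicate 4, 681 without NPY1R low replicate 1 and 588 without NPY1R low replicate 3. The 1069 higher and 1064 lower were both without NPY1R low replicate 4. The term that split replicates gave 1681 lower. Among all calls, 810 were higher and 1094 lower with TMM, 898 and 905 with median-of-ratios factors, 949 and 807 with library totals, and 1009 and 783 with upper-quartile factors. The pathway genes called higher numbered 8 in every fit, and those called lower 1 to 3 with each library left out, 1 of them without NPY1R low replicate 3. The causes were not tested.

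With median transcript lengths, ADAMTS1 had 57.0 and 8.22 TPM in NPY1R high and low, and TIMP2 1.31 and 1.47, since the lengths differ by construction. With each library left out, ADAMTS1 ranged from 20.2 to 22.1 and 3.06 to 3.35 TPM.

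Deviations from the group mean of same-numbered libraries correlated at 0.339, 0.157, 0.0905 and 0.0179 for replicates 1 to 4, all positive. Differently numbered libraries were not compared in this way, so whether the replicate numbers pair the libraries was not tested. The fit with the replicate block called 805 genes higher, 1028 lower and 1 member higher (ADAMTS1). Members with few counts are limited by depth, at 3 to 14 counts per library for ADAMTS9.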
